A study of Mus musculus with 2 samples.

Results

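Hyaluronan is a long, unbranched sugar polymer that fills the matrix around chondrocytes, the cells of cartilage, and holds water there. It is made at the cell surface by the hyaluronan synthases, which are encoded by Has1, Has2 and Has3, is bound by the cell surface receptor Cd44 and is cleaved by hyaluronidases such as Hyal2. Has2 is known as the main synthase of embryonic tissue and is required for normal limb and cartilage development, whereas Cd44 ties chondrocytes to their hyaluronan coat.

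These 5 genes, of 51229 autosomal genes in the GENCODE mouse release M21 annotation, were examined for open chromatin in the proximal and distal ends of the embryonic mouse femur. They were picked as genes of hyaluronan metabolism with a group of peaks found in the proximal femur alone, so the measured peak positions around Has2 themselves chose them. All peaks inside or within 500 kb of Has2, and inside or within 50 kb of Has1, Has3, Cd44 and Hyal2, were counted, and this gave 40 peak regions of 32388 in the genome. The counts per gene are therefore a description, without a test.

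ATAC-seq, in which a transposase cuts and tags accessible DNA, had been performed on FVB (labelled FVBNJ) embryos at E15.5, with no treatment or genetic change named. The groups were the proximal and the distal cartilaginous end of the right and left femurs, which hold the growth plate with every chondrocyte zone and the overlying perichondrium, so that the tissue is a mixture of cell states and not a single chondrocyte type. The ends were pooled within a litter of about 8 animals, digested with collagenase and used at 50000 cells. Each end has 2 biological replicates, which the deposited files combine into 1 list of peak positions without heights, so no value below carries a replicate error and each comparison of the ends compares 2 lists.

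There were 28257 peaks for the proximal end, of median width 711 bp, and 27958 for the distal end, of median width 691 bp. Overlapping peaks were merged into regions, and a region was called shared where it held a peak of both ends (73.0% of all regions), and proximal-only or distal-only otherwise. Genome-wide, 16.1% of proximal peaks had no overlapping distal peak and 15.0% of distal peaks had no overlapping proximal peak. As a check of the tissue, genes with a peak within 1 kb of a start site were counted. Of all 20807 autosomal protein-coding genes, 55.0% had one in both ends and 40.9% in neither. A further 1.37% had one in the proximal and 2.77% in the distal end alone. Of 9 chondrocyte marker genes, 8 had such a peak in each end and all 9 in at least 1 end. The chondrocyte marker without a peak thus differed between the ends. None of 4 osteoblast, 4 muscle or 3 blood cell markers had such a peak (0 in each end), whereas 1 of 4 endothelial markers in the proximal and 2 of 4 in the distal end (Kdr and Tek) did, and in each end so did 1 of 4 epithelial markers (Epcam). The osteoblast markers included Runx2, which also acts in chondrocytes, so a marker without a start site peak does not show that its cells were absent. The part of such other cells in the results was not tested.

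Has2 (ENSMUSG00000022367.7, chr15:56665627-56694539, minus strand, mm10) was the gene with the proximal-only peaks. Within 500 kb of it lay 16 proximal peaks and 7 distal peaks, which formed 9 proximal-only regions, 0 distal-only regions and 7 shared regions. Proximal-only regions thus made up 56.3% of the regions around Has2. Genome-wide, where 16.1% of proximal and 15.0% of distal peaks lacked an overlap and 73.0% of regions were shared, 14.1% of regions were proximal-only. This 14.1% pools regions at and away from start sites, and the share away from them was not computed. Of all regions, 51.2% of the shared but 14.7% of the proximal-only ones lay within 1 kb of a start site. Near Has2 this held for 2 of the 7 shared and 1 of the 9 proximal-only regions. Has1 had 6 shared regions within 50 kb and none of either single end. Has3 had 1 region, which was shared. Cd44 had 1 proximal-only, 1 distal-only and 4 shared regions, and Hyal2 had 1 proximal-only and 10 shared regions. Together the 4 other genes had 24 regions, of which 8.33% were proximal-only, 4.17% distal-only and 87.5% shared.

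**Figure D1:**
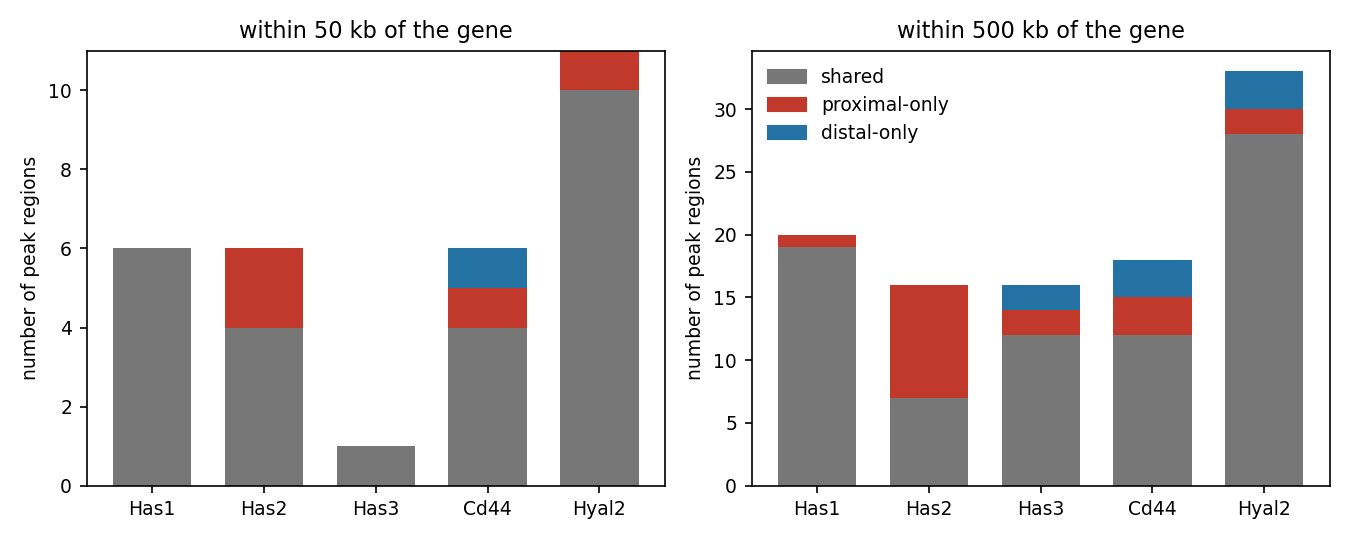
Number of peak regions by gene (stacked bars, y axis) within 50 kb on the left and within 500 kb on the right, split into shared (grey), proximal-only (red) and distal-only (blue) regions, without error bars. Within 50 kb Has2 has 2 proximal-only regions of 6, and within 500 kb it has 9 of 16, against 1 to 3 for the other genes.

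The difference between Has2 and the other genes lay in distant sequence. In windows of the same width, 50 kb, Has2 had 2 proximal-only and 4 shared regions, so it stood 1 region above Cd44 and Hyal2. At 100 kb it had 2 beside 5 shared regions, at 200 kb 3 beside 6, at 500 kb 9 beside 7, and at 1 Mb 13 beside 18 shared and 2 distal-only regions, so proximal-only regions outnumbered shared ones at 500 kb but not in the narrower or the wider windows. In the 500 kb window Has1 had 1 proximal-only and 19 shared regions, and Has3 had 2 proximal-only, 2 distal-only and 12 shared regions. Cd44 had 3 of each single-end class and 12 shared regions, while Hyal2 had 2 proximal-only, 3 distal-only and 28 shared regions. Has2 was thus the only member with more proximal-only than shared regions in the 500 kb window, and the only one with several proximal-only regions and no distal-only region. The bar plot of regions by gene shows the 2 windows side by side.

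Of 20807 autosomal protein-coding genes, 76 (0.365%) had at least as many proximal-only regions within 500 kb as Has2, Has2 included. Because Has2 was chosen on this count, the share places it in the genome and is no test. The median gene had 2 proximal-only, 2 distal-only and 15 shared regions, and the highest proximal-only count was 14. Has2 was among 202 genes (0.971%) with more proximal-only than shared regions. Only 11 genes (0.0529%) combined a count of 9 or more with no distal-only region. Has2 also lies in a gene-poor stretch, with no other protein-coding gene within 500 kb. This held for 135 genes, with medians of 1 proximal-only, 1 distal-only and 5 shared regions, and among them Has2 alone reached 9.

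**Figure D2:**
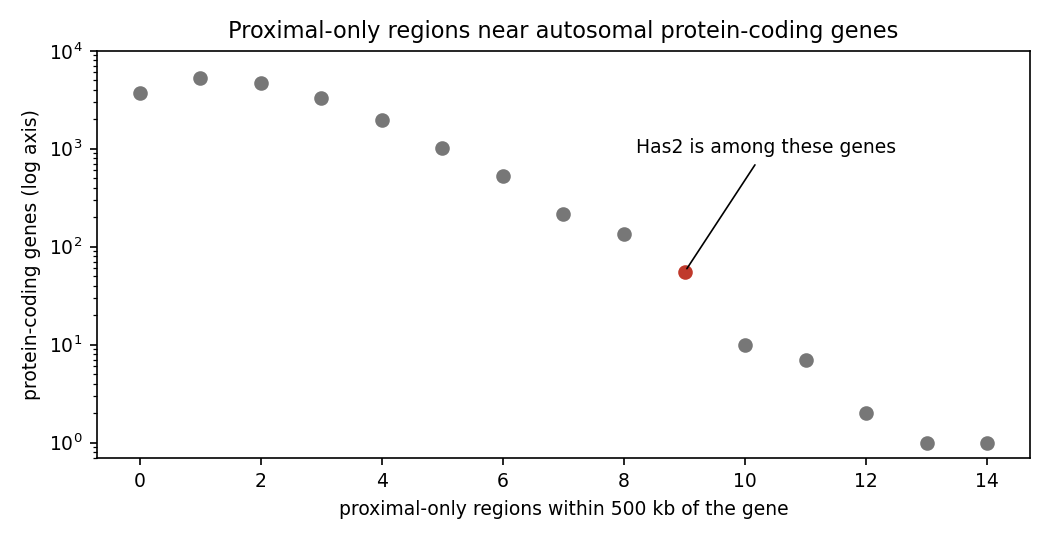
Number of autosomal protein-coding genes (y axis, logarithmic) by the number of proximal-only regions within 500 kb of the gene (x axis), 1 point per count. Has2 is among the 55 genes with exactly 9 (red), and the highest count is 14.

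Likeness to Has2 was measured by the number of proximal-only minus distal-only regions within 500 kb, over the 2 lists, which was 9 for Has2 and 9 or more for 13 genes (0.0625%), ties being broken by name among genes outside 1 Mb of Has2. The 5 genes so named were Gm8897 (10 proximal-only, 0 distal-only and 0 shared), Gm8922 (10, 0 and 4), Gm6460 (9, 0 and 2), Arhgap35 (12, 3 and 34) and Ccdc68 (9, 0 and 11). The 3 whose symbols begin with Gm lie within 270 kb of each other on chromosome 5 and draw on 11 distinct proximal-only regions, 9 of them in more than 1 of their windows, so they are not separate cases. Arhgap35 differed from Has2 in having 34 shared regions.

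The 9 proximal-only regions were not a single compact cluster. They were spread over 697 kb, with 4 upstream of the gene, 4 downstream and 1 at its start. The closest neighbours were 3 regions upstream that lay within 19.4 kb of each other, inside an intron of the lincRNA gene Gm2582, and a pair downstream that was 13.6 kb apart. The other gaps between adjacent proximal-only regions ran from 77.9 to 175 kb. The shared regions were mostly closer to the gene, and 3 of the 7 were inside it, 2 upstream and 2 downstream. Beyond 50 kb from the gene there were 7 proximal-only and 3 shared regions, and within 50 kb there were 2 proximal-only and 4 shared regions.

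**Figure D3:**
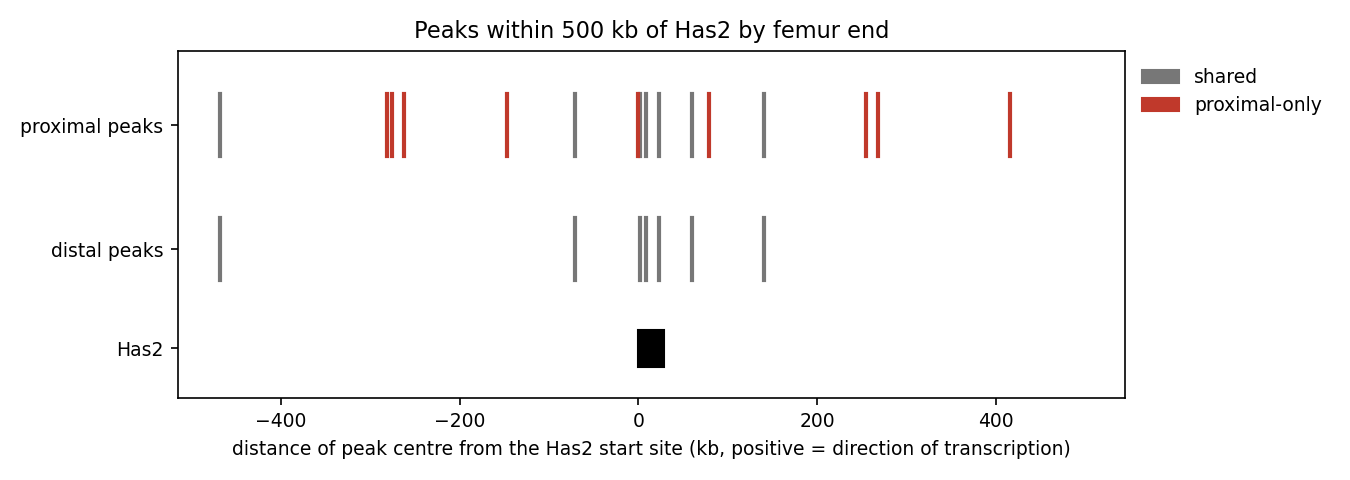
Peaks within 500 kb of Has2 by distance of the peak centre from the Has2 start site (x axis, kb, positive in the direction of transcription), with proximal peaks in the upper row, distal peaks in the middle row and the gene as a black box. Grey marks are shared regions and red marks the 9 proximal-only regions, which lie on both sides of the gene, while the distal row holds 7 peaks, all shared.

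Read in the direction of transcription, the upstream side began with a shared region 468 kb from the gene (chr15:57162224-57163006), whose nearest protein-coding start is that of Slc22a22. Then followed the 3 proximal-only regions in Gm2582, at 281 kb (chr15:56975314-56976076), 275 kb (chr15:56969907-56970567) and 262 kb (chr15:56956702-56957516) upstream. A further proximal-only region, chr15:56841425-56842062, lay in intergenic sequence 147 kb upstream. The last upstream region, at 70.2 kb (chr15:56764710-56765759), was shared and covered a start of Has2os. The annotated span of this noncoding antisense gene (chr15:56689944-56778399) includes the Has2 start, which lies outside this region. None of the 4 proximal-only regions upstream had a distal peak closer than 75727 bp, and the 3 in Gm2582 were between 186159 and 191668 bp from the nearest one.

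At the gene itself the 2 ends differed at the start. The proximal list had a peak of 453 bp, chr15:56694390-56694842, that covered the start site of Has2 (position 56694539) and its UTR exon, together with an exon of Has2os. The distal list had no peak there. Its nearest peak was the first intronic region, chr15:56692133-56693515, which was shared, with 1335 bp in the proximal and 1383 bp in the distal list, and ended 1023 bp from the start. This region lay 874 bp from the proximal-only peak, the smallest such distance of the 9, so both lists held open chromatin close to the Has2 promoter and the proximal list had a further, separate peak over the start itself. Within the gene 2 further intronic regions were shared.

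Downstream of Has2 the shared and proximal-only regions alternated as far as 111 kb, and beyond that only proximal-only regions were found. Shared regions lay at 31.0 kb (chr15:56634088-56634665) and 111 kb (chr15:56554049-56554926) beyond the end of the gene, with a proximal-only region of 1001 bp, the widest of the 9, at 49.1 kb (chr15:56615530-56616530). It was 17557 bp from the nearest distal peak. Farther out, at 225 kb (chr15:56440135-56440483), 239 kb (chr15:56425897-56426516) and 387 kb (chr15:56278584-56278958), proximal peaks lay in intergenic sequence. The nearest distal peak was at least 113565 bp away from these 3, and 200267 bp away from the outermost. Has2 was the nearest protein-coding gene, by start site, to 14 of the 16 regions, the exceptions being the outermost on each side, which were nearer to Sntb1 and Slc22a22.

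Among the 9 proximal-only regions, 6 were more than 100 kb from the nearest distal peak and their median distance was 127532 bp. Over all proximal-only regions the median was 23407 bp and 12.9% were more than 100 kb away. The same positions set both the class and this distance, so it describes how isolated the regions were. The first regions beyond the window were shared on both sides, 587 kb downstream and 584 kb upstream, whereas the outermost inside it were the proximal-only region at 387 kb and the shared region at 468 kb. The protein-coding genes next to Has2 were Sntb1, 759 kb downstream, and Slc22a22, 549 kb upstream.

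The start site of Has2 was covered by a proximal peak only, in the same lists that chose the gene. A peak within 1 kb of a start site in the proximal femur alone was found for 286 of 20807 protein-coding genes (1.37%), in the distal femur alone for 576 (2.77%), in both for 11440 (55.0%) and in neither for 8505 (40.9%). Has2 was in the first of these classes, by 0 bp against 1023 bp, and would have counted as open in both ends had the limit been slightly wider. Cd44 and Hyal2 had a start site peak in both ends. Has1 and Has3 had none in either.

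Where both ends had a peak near Has2, the peaks were of similar extent. The 7 shared regions had a median width of 848 bp in the proximal and 695 bp in the distal list, the proximal peak was the wider in 4 of 7, and 73.2% to 98.3% of the bases covered by either were covered by both. Over the shared regions of all 5 genes the proximal peak was the wider in 17 of 28. The proximal-only regions near Has2 had a median of 638 bp and a range of 349 to 1001 bp, below the 848 bp of the shared regions there and above the median of 510 bp for all proximal-only regions, and 3 of the 9 were at least as wide as the median proximal peak. They were also poor in G and C: their median GC content was 40.5% (range 35.6% to 56.1%), compared with 46.6% for all proximal-only regions, 44.4% for the shared regions near Has2 and 58.2% for those near the 4 other genes. Of the latter, 66.7% lay within 1 kb of a start site, against 1 of the 9 proximal-only and 2 of the 7 shared regions near Has2.

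The sequences of these regions were searched for short motifs of DNA-binding factors, only some of them known in cartilage, on both strands, in the 200 bp around the peak centre. AP-1 is the family of Fos and Jun factors, and RUNX factors such as Runx2 drive chondrocyte maturation. The centres of the 4 proximal-only regions with an AP-1 match are shown in 5′ to 3′ direction, because they are distant regions without a distal peak that share a motif. Capitals mark AP-1 matches (TGANTCA) and RUNX matches (ACCACA, or TGTGGT on the other strand).
281 kb upstream, chr15:56975595-56975794, plus strand: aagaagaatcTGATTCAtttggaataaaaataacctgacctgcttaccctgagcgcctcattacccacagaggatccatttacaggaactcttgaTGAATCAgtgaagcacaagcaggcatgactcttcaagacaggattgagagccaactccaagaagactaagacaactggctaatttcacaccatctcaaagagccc
275 kb upstream, chr15:56970137-56970336, plus strand: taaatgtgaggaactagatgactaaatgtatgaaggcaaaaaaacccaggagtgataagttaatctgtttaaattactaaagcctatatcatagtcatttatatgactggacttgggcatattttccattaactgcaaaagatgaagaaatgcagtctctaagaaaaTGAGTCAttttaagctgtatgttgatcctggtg
147 kb upstream, chr15:56841643-56841842, plus strand: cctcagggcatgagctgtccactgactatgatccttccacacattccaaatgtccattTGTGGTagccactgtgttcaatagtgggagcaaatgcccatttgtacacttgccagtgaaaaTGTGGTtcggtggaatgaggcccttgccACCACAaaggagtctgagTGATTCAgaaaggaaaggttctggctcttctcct
225 kb downstream, chr15:56440209-56440408, plus strand: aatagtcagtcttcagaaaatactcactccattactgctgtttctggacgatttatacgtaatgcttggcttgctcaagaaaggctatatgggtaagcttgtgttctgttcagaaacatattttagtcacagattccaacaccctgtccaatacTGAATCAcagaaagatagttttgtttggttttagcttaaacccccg

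The region 147 kb upstream held 3 RUNX matches, at positions 59-64, 121-126 and 149-154 of the printed sequence, and an AP-1 match at 167-173. Of all 4559 proximal-only regions, 14 (0.307%) had 3 or more RUNX matches in the centre, a limit set after this region had been seen. The region 281 kb upstream held 2 AP-1 matches. Of all proximal-only regions 8.23% held 2 or more, a limit set in the same way. An AP-1 match was thus found in 4 of the 9 regions (44.4%, Wilson 95% interval 18.9% to 73.3%, counting error only), compared with 39.7% of all proximal-only, 25.4% of all distal-only and 20.6% of all shared regions, and with 3 of the 7 shared regions near Has2. The interval for Has2 includes all of these shares. It treats the 9 regions as independent draws and is no test. The measured positions chose these regions, and 3 of them lie within 19.4 kb of each other. The middle base of the match also varied. With G or C in the middle, the form TGAGTCA or TGACTCA that Fos and Jun dimers bind best, the match was present only in the region 275 kb upstream (1 of 9, 11.1%) but in 3 of the 7 shared regions, and in 32.6% of all proximal-only regions. Over whole peaks it was present in 4 of the 9 (44.4%) and in 4 of the 7 shared regions, against 45.5% of all proximal-only regions. This stricter form was also chosen after the matches had been seen.

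The shared regions outside the gene with TGAGTCA in the 200 bp centre are shown for comparison, with the same motifs in capitals. They were downstream of the gene, at 111 kb and 31.0 kb. The shared region 70.2 kb upstream had 3 matches of TGAGTCA or TGACTCA over its whole peak but 0 in its centre.
111 kb downstream, chr15:56554387-56554586, plus strand: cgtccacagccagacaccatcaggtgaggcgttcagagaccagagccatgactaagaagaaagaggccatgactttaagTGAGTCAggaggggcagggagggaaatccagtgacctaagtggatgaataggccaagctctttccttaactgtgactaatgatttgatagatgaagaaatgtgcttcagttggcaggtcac
31.0 kb downstream, chr15:56634276-56634475, plus strand: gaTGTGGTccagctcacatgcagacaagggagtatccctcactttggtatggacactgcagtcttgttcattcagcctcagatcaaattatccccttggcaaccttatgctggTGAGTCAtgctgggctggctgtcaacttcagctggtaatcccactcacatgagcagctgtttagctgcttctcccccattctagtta

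A RUNX match in the centre was found in 1 of the 9 proximal-only regions (11.1%, interval 1.99% to 43.5%), 1 of the 7 shared regions and 21.4% of all proximal-only regions. Over whole peaks 4 of the 9 had one (44.4%), near the 41.5% of all proximal-only regions, and so did 5 of the 7 shared regions. The SOX letters ACAAAG or ACAATG, a form of the site of Sox9, the master regulator of chondrocytes, were present in the centres of 2 of the 9, against 18.8% of all proximal-only regions. The letters TAATTA of homeodomain factors and TGTTTAC of forkhead factors were in none of these windows (0 of 9). The TEAD letters GGAATG and the GATA letters AGATAA were each in 1 of 9, against 13.6% and 4.61% of all proximal-only regions. The E-box CAGCTG, the NF-Y letters CCAAT and the SP letters GGGCGG were each in 2 of 9, against 14.3%, 23.3% and 7.44%. In the centres, each of these comparison shares lies inside the interval around the Has2 share, which again is no test. Over whole peaks the GATA letters were in 5 of the 9 (55.6%), against 16.1% of all proximal-only regions and 1 of the 7 shared regions near Has2. This motif was named after the values of all the motifs had been seen, and the difference was not tested. The 9 regions were wider than all proximal-only regions (median 638 against 510 bp) and poorer in G and C (40.5% against 46.6%). The part of width and GC content in the GATA count was not tested. These are matches of letters in the window and not measured binding.

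Has1 (ENSMUSG00000003665.7, chr17:17843323-17855205, minus strand), another synthase, had 6 regions, all shared. None lay at its start: the nearest distal peak was 1994 bp and the nearest proximal peak 2112 bp upstream of it, in 1 shared region (chr17:17857200-17857957). Another was inside an intron of Has1 (chr17:17845257-17846049, 793 bp proximal and 750 bp distal). The other 4 fell in neighbouring genes. Of these, 3 were in Spaca6, at chr17:17826020-17827496, chr17:17827714-17829079 and chr17:17837429-17838789, and 1 was in an intron of Fpr3 (chr17:17896005-17896650). The Has1 promoter, from 250 bases before to 50 after the start, is given by RefSeq as follows (GRCm38.p6), and it lay outside the peaks of both lists. The capitals mark NF-Y (CCAAT) and SP (GGGCGG) matches on either strand.
Has1 promoter, chr17:17855139-17855438, minus strand: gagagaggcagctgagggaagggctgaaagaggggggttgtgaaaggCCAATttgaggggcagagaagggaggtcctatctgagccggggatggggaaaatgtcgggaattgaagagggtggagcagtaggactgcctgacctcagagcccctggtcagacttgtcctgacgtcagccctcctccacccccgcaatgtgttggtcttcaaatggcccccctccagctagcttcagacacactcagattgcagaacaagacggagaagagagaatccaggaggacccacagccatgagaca

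Has3 (ENSMUSG00000031910.14, chr8:106870242-106884566, plus strand), which makes hyaluronan of shorter chains, had the fewest regions. Its only region within 50 kb, chr8:106893007-106894033, began 8.44 kb beyond the end of the gene and covered the starts of Chtf8 and Utp4. The peak was 1008 bp wide in the proximal and 587 bp in the distal list, and 55.3% of their joint extent was in both, the lowest value of the 28 shared regions. No region lay in the body of Has3, and its start was 22115 bp from the nearest proximal and 22555 bp from the nearest distal peak. Of the 3 synthases, only Has2 therefore had a peak at its start, and only in the proximal list.

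Cd44 (ENSMUSG00000005087.17, chr2:102811141-102901665, minus strand) was open at its start in both ends (chr2:102901020-102901951, 876 bp proximal and 849 bp distal). Shared intronic regions followed at chr2:102894797-102895735 and chr2:102873048-102873932, and 1 shared region lay 42.2 kb upstream (chr2:102943839-102944456). Deeper in the gene the ends differed in both directions. The distal list alone had a peak of 544 bp in an intron, centred 51.5 kb from the start (chr2:102849863-102850406), and the proximal list alone had one of 772 bp, centred 73.2 kb from the start, that reached a coding exon (chr2:102828068-102828839). These neighbours were 21023 bp apart, and each was the nearest peak of the other end. Their centres are shown because they are the only regions of the 4 genes other than Has2 in which an end had its own peak inside the gene body. Capitals mark AP-1 matches (TGANTCA), of which the proximal-only centre had 1, TGAATCA, and the distal-only centre none. The middle base of this match is not G or C. Over all regions, 39.7% of proximal-only and 25.4% of distal-only centres held an AP-1 match, so 1 region of each class shows nothing about the ends.
Cd44 proximal-only, chr2:102828353-102828552, plus strand: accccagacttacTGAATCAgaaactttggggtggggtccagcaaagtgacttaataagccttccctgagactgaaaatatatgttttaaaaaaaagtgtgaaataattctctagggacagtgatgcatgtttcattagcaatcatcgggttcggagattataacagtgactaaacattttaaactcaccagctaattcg
Cd44 distal-only, chr2:102850034-102850233, plus strand: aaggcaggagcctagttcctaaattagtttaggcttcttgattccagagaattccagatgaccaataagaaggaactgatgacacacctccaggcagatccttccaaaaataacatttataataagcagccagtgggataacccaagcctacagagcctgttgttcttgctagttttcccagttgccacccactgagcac

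**Figure D4:**
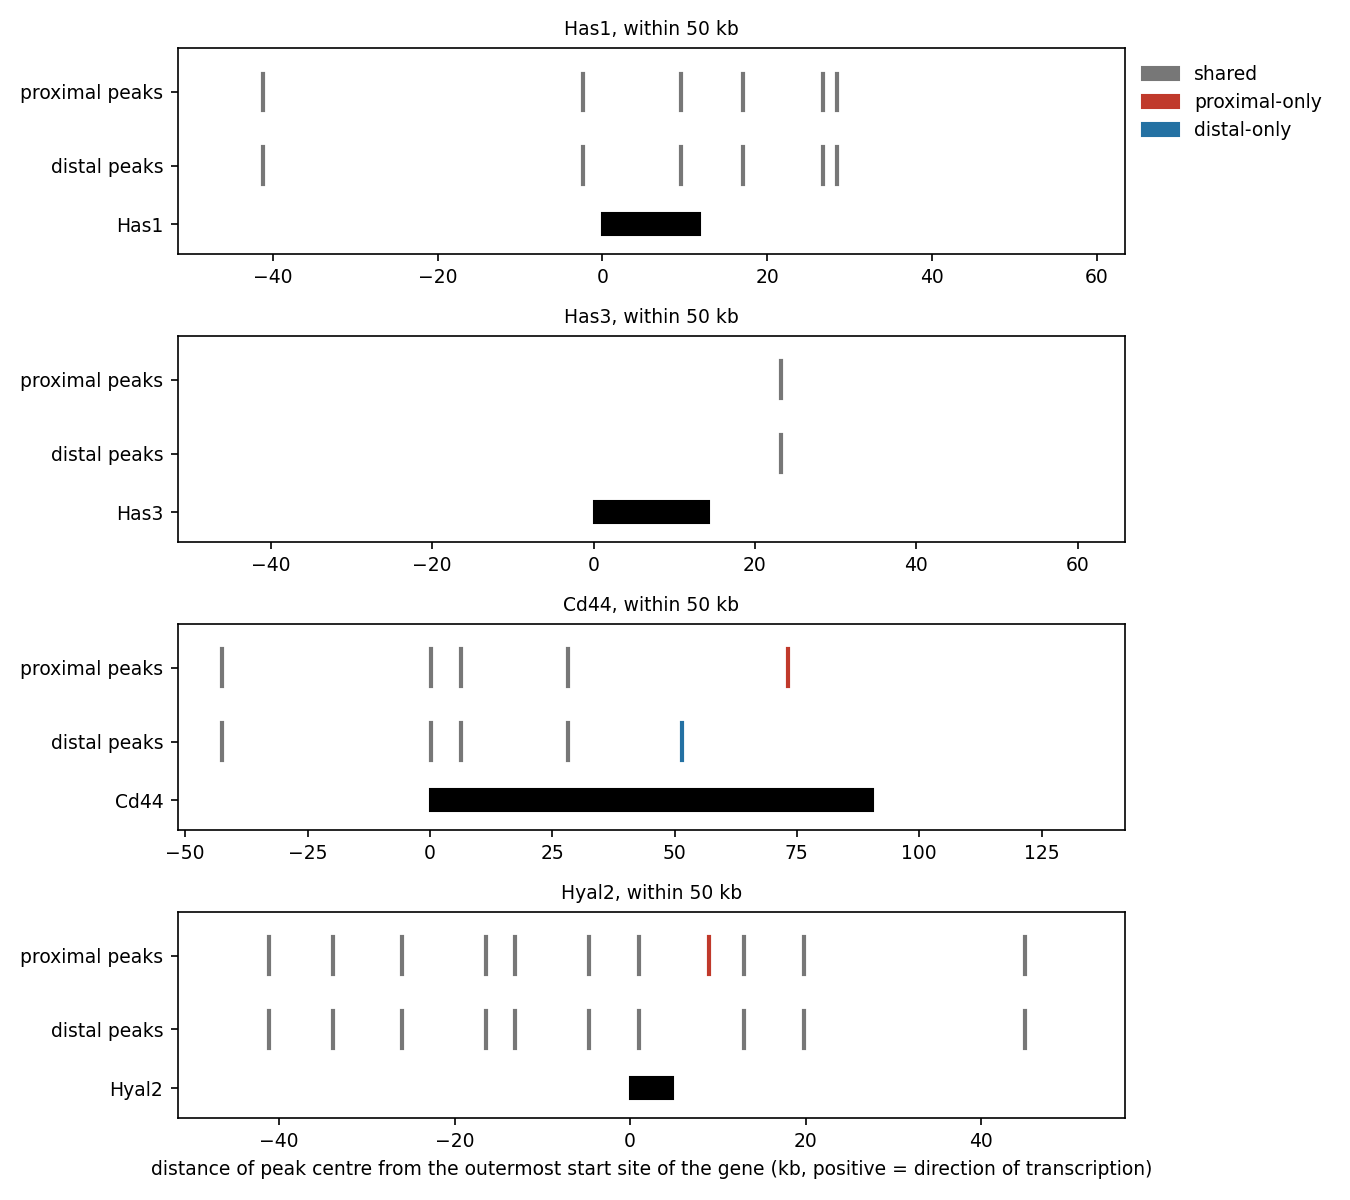
Peaks within 50 kb of Has1, Has3, Cd44 and Hyal2 by distance of the peak centre from the outermost start site (x axis, kb, positive in the direction of transcription), with proximal peaks above distal peaks and the gene as a black box. Most marks are shared (grey), and the exceptions are 1 proximal-only (red) and 1 distal-only (blue) region in Cd44 and 1 proximal-only region beyond the end of Hyal2.

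Hyal2 (ENSMUSG00000010047.12, chr9:107567945-107572779, plus strand), a hyaluronidase anchored to the cell surface that cuts long chains, lies among 13 other protein-coding genes within 50 kb. Its start was in a shared region (chr9:107568378-107569616, 939 bp proximal and 1166 bp distal). The 1 proximal-only region, chr9:107576756-107577074, was 319 bp wide, lay 3976 bp past the end of Hyal2 and covered a start of Hyal1, which encodes a lysosomal hyaluronidase. The nearest distal peak was 3376 bp from it, and this was the shared region at the starts of Hyal3, Naa80 and Hyal1 (chr9:107580409-107581359), where the proximal peak was 603 bp and the distal peak 909 bp wide. The remaining regions were shared and lay at the starts of Cacna2d2, Tmem115, Cyb561d2, Nprl2, Rassf1, Tusc2 and Ifrd2, or near Gnai2. The Hyal1 promoter is printed because the single proximal-only peak near Hyal2 lies on it, beside those of Hyal2 and Cd44, which were open in both lists. Capitals again mark NF-Y and SP matches.
Hyal1 promoter, chr9:107576700-107576999, plus strand: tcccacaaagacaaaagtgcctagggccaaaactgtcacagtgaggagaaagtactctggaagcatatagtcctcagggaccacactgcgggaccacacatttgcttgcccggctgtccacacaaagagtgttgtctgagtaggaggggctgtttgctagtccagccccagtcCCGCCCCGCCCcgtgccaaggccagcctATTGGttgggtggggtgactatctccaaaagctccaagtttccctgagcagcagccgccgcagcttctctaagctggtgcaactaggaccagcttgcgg
Hyal2 promoter, chr9:107568913-107569212, plus strand: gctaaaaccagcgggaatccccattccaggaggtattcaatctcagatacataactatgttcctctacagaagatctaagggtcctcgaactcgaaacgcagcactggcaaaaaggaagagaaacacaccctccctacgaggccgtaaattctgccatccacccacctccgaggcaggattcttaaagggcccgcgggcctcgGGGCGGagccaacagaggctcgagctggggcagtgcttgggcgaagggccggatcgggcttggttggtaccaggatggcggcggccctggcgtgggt
Cd44 promoter, chr2:102901616-102901915, minus strand: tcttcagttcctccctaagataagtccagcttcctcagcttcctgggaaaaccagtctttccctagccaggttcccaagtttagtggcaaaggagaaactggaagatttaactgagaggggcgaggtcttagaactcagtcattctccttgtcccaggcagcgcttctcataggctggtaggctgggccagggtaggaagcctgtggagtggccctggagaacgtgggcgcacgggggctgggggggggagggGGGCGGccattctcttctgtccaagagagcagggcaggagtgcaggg

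The Hyal1 promoter had 2 overlapping SP matches and 1 NF-Y match, the Hyal2 and Cd44 promoters 1 SP match each, and the Has1 promoter 1 NF-Y match. Of 32851 promoters in the RefSeq table, 35.7% held an SP and 37.4% an NF-Y match. The Hyal1 promoter also held 2 RUNX and 2 SOX matches, which are not in capitals, and the Has1, Hyal2 and Cd44 promoters held neither. Of all promoters, 16.8% held a RUNX and 28.6% a SOX match. These 2 motifs were named after their counts had been seen. Promoters of 3 of the 5 genes were matched in that table (Has1, Cd44 and Hyal2).

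The wider hyaluronan pathway was described through 33 other autosomal genes with 133 distinct regions within 50 kb, of which 12.8% were proximal-only, 8.27% distal-only and 105 shared. Over the whole series 14.1% of regions were proximal-only, 12.9% distal-only and 73.0% shared, so the list as a whole was near the proximal-only share of all regions. A start site peak was present in both ends for 20 of the genes, in neither for 9, in the distal femur alone for 4 (Hexa, Stab2, Itih2 and Ptx3) and in the proximal femur alone for 0, where 1.37% of all protein-coding genes had one in the proximal and 2.77% in the distal femur alone. The enzymes that make the sugar precursors of hyaluronan had 6 proximal-only, 1 distal-only and 16 shared regions over 5 genes. Ugdh, which makes the UDP-glucuronic acid that Has2 uses, had 3 proximal-only and 2 shared regions, and Gfpt2, at the entry to the hexosamine pathway, had 2 proximal-only, 1 distal-only and 3 shared regions. Gfpt1 had 1 proximal-only and 2 shared regions, and the other genes of this group had shared regions alone.

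The degradation genes had 2 proximal-only, 2 distal-only and 36 shared regions over 7 genes. This group includes Hyal1 and Hyal3, whose windows overlap that of Hyal2, so the proximal-only region at Hyal1 is the same one. The other was at Cemip, a hyaluronan-binding protein needed for depolymerization, which had 1 proximal-only, 1 distal-only and 4 shared regions, and Hexa, a lysosomal hexosaminidase subunit, had 1 distal-only and 1 shared region. The other receptors had 2 proximal-only, 2 distal-only and 19 shared regions over 6 genes, and both proximal-only regions were near Tlr4, beside 4 shared ones, while the scavenger receptor genes Stab1 and Stab2 each had 1 distal-only and 3 shared regions. The link proteins and matrix partners, which bind hyaluronan in the cartilage matrix, had 7 proximal-only, 6 distal-only and 34 shared regions over 15 genes. Among them Vcan, a large proteoglycan of early cartilage, had 3 proximal-only, 2 distal-only and 2 shared regions. Acan, the main proteoglycan of mature cartilage, had 1 distal-only and 4 shared regions, and Hapln1, the link protein that joins it to hyaluronan, had 1 proximal-only, 1 distal-only and 2 shared regions, of which both single-end regions were also counted for its neighbour Vcan. The genes of the inter-alpha-trypsin inhibitor heavy chains, which are coupled to hyaluronan, included Itih1, Itih3 and Itih4 with 1 proximal-only and 1 shared region each, neighbours whose windows overlap. Itih5 had 1 proximal-only, 1 distal-only and 8 shared regions, and Itih2 had 1 distal-only region, the same one as Itih5, and 6 shared regions. Ptx3 had 1 region of each class, Ncan had 1 distal-only and 6 shared regions, and Hapln3 had 1 proximal-only and 1 shared region.

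**Figure D5:**
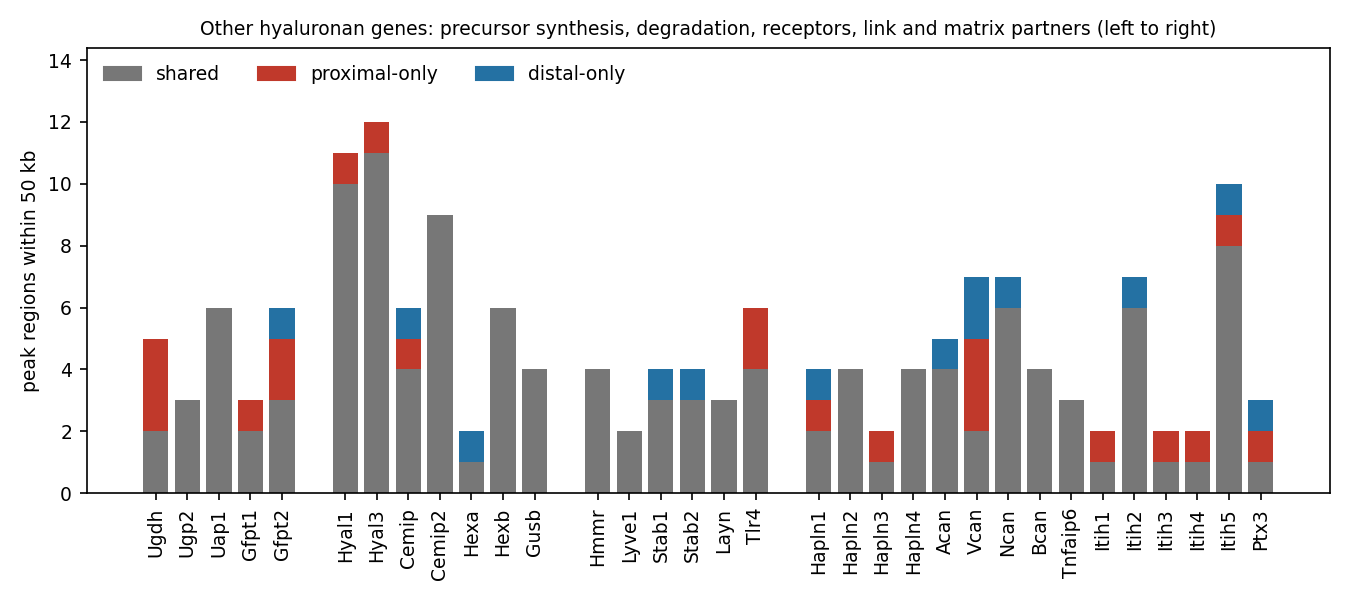
Peak regions within 50 kb (y axis) of the 33 other hyaluronan genes, in groups from left to right of precursor synthesis, degradation, receptors, and link and matrix partners, split into shared (grey), proximal-only (red) and distal-only (blue). Ugdh and Vcan have the most proximal-only regions, 3 each. At least 1 is found for 15 of the 33 genes, but neighbours with overlapping windows count the same region. Of the 133 distinct regions 12.8% are proximal-only, against 14.1% of all regions.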

How the data were processed

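ATAC-seq peak positions were analysed for the proximal and the distal femur end, with 1 list per end. As the labels and methods of the study state, the authors used Bowtie2 for alignment to mm10 and MACS2 for peak calling after duplicate removal, and retained the peaks that were reproducible in the 2 biological replicates at an irreproducible discovery rate of 0.05. The deposited lists hold chromosome, start and end of each peak, and no height, score or depth (unit: other). The read depth of the libraries was not analysed here. Starts were read as counted from 0 and are given here counted from 1. No per-sample column was left without a sample.

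Regions were merged from peaks that overlapped by at least 1 bp and were assigned to genes of GENCODE release M21 by distance from the gene body. Start sites were those of every annotated transcript, and a peak within 1 kb counted as a start site peak. Positions were handled with Python 3.11.15, NumPy 2.4.6 and SciPy 1.17.1, and sequences with pysam 0.24.0 and samtools 1.23.1. Plots were made with matplotlib 3.10.9. Motif letters were searched on both strands in the 200 bp around the centre of the merged region. The class assignment was run on 300 simulated sites set far apart, and the number of sites in each class came out as made. The class of each single site was not compared, and neighbouring peaks that merge were not simulated. With 2 lists and no replicate values no test was possible, and none was run. Wilson intervals at 95% cover counting error only.

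The 5 genes, the windows, the pathway and marker lists and the alternatives were chosen with earlier results of these data known. The genes named are these 5, the genes at their peaks, all genes of the pathway list with an end-specific region, the markers of cells other than chondrocytes that had a start site peak, named after their values were seen, and the 5 genes with the most proximal-only minus distal-only regions within 500 kb. The osteoblast marker Runx2 was named because it also acts in chondrocytes. The sequence of 1 further item is not reported here.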

Additional observations from a re-analysis of the deposited data

How the results depend on the processing

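Of 42 values recomputed under an alternative, 29 stayed within 1.5 times the count given, or within its interval, and 13 moved. The count of proximal-only regions near Has2 depended on the window, with 2 within 100 kb and 3 within 200 kb in place of 9 within 500 kb. Shared regions then numbered 5 and 6, in place of 7, and in the 1 Mb window there were 13 proximal-only, 2 distal-only and 18 shared regions, so the excess of proximal-only over shared regions was found in the 500 kb window alone of these 4. The share of protein-coding genes with at least as many proximal-only regions as Has2 was 10.9% within 100 kb and 8.58% within 200 kb, in place of 0.365%. Within 1 Mb it was 0.375%. When peaks narrower than their list's median were left out, Has2 had 5 proximal-only and 4 shared regions, and the other 4 genes had 4 proximal-only, 2 distal-only and 13 shared regions, since removing a narrow partner makes the wider peak of a shared region look end-specific. The share of Has2 proximal-only regions with a RUNX match went from 11.1% to 44.4% over whole peaks, where all proximal-only regions had 41.5%, and that with an AP-1 match was 11.1% with G or C as the middle base, an alternative chosen after seeing the data, in place of 44.4%, but again 44.4% over whole peaks, against 45.5% of all proximal-only regions. Requiring 50% reciprocal overlap, allowing a gap of 500 bp, and measuring from the start site left 9 proximal-only and 0 distal-only regions near Has2.

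No paired analysis was possible because each list combines its replicates, and no replicate was left out for the same reason. The lists give the presence of a peak and not its height, so distal signal under the authors' threshold in a proximal-only region was not measured.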
